A study of Homo sapiens with 8 samples.

Results

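Passage from G1 into S phase, DNA replication, and mitosis each depend on transcripts that dividing cells make in waves. Here, 44 such genes were followed in HEK293T stable cell lines, 26 that act at G1/S or in replication (G1/S and replication genes) and 18 that act in mitosis (mitotic genes). They were chosen by name, with earlier results of these data known, out of 19483 genes with a symbol on the array, and all 44 were measured. D-type cyclins with CDK4 or CDK6, and then E-type cyclins with CDK2, phosphorylate the pRB family and release E2F transcription factors, which turn on genes for licensing and copying DNA. Mitotic genes peak later, when the DREAM complex has left their promoters and B-MYB and FOXM1 act there. HEK293T, a line of human embryonic kidney cells, carries SV40 large T antigen, a viral protein known to bind and inactivate the pRB family.

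The study fused the catalytic domain of TET1, which oxidizes 5-methylcytosine, to the methyl-CpG-binding domain (MBD) of MBD2 in order to reactivate methylated genes. The groups were HEK293T stable cell lines carrying the empty vector (clones #1 and #2), the wild-type catalytic domain alone (TET1-CDwt #2 and #5), its MBD fusion (MBD-TET1-CDwt #3 and #10), and the same fusion with a catalytically inactive domain (MBD-TET1-CDmut #9 and #10). Each construct was expressed from a pcDNA6 plasmid, every line was selected with blasticidin S and grown from 1 colony, and 1 single-color Agilent array was hybridized per clone. Growth was followed by the study in another cell line, LNCaP, which was not analysed here.

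Levels are given on a log2 scale on which the 75th percentile of each array is 0, so that 1 unit is 2-fold and levels of different genes cannot be set against each other. That percentile lay at an intensity of 328 to 527, and 63.2 to 68.2% of probes were well above background on an array. Slide 1 held empty vector and TET1-CDwt and slide 2 the MBD fusions, so slide and MBD fusion cannot be told apart in comparisons with empty vector, whereas MBD-TET1-CDwt was compared with MBD-TET1-CDmut within slide 2. All 6 markers of HEK293T were well above background on all 8 arrays. KLK3, a defining gene of LNCaP, was well above background on none and 3 of 5 LNCaP markers on all 8, and of 9 markers of blood, liver, endothelium and fibroblasts 4 were above it on all 8 arrays. The brighter of 2 TET1 probes was at 2.61 to 2.94 on the 8 arrays, and since its place relative to the expressed domain is not given in the sources used here, it checks no label. All 44 genes were well above background on all 8 arrays, and 11 of them were printed as 10 spots, whose SD within an array was 0.02 to 0.12. A gene had 2 arrays per group, and p-values and intervals rest on 1 spread per gene. limma pooled that spread over the clone pairs of all 4 groups and drew it toward that of all probes. Clone SD ran from 0.25 (MBD-TET1-CDmut) to 0.50 (MBD-TET1-CDwt) across all probes tested. The pooled spread may thus be too small for MBD-TET1-CDwt.

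E2F sites are known from promoters of G1/S genes and CHR elements from those of mitotic genes, so 1 promoter of each group is shown. Windows of 250 bases before to 50 bases after the start were found in the RefSeq promoter table (GRCh38.p14) for 20 of the 26 G1/S and replication genes and 16 of the 18 mitotic genes, and were searched on both strands. E2F sites (TTTCCCGC, TTTGGCGC, TTTCGCGC or TTTGCCGC) were in 13 of 20 G1/S and replication promoters (65.0%), in 1 of 16 mitotic promoters (6.25%, CDK1), and in 3.33% of all 27305 promoters. TTTGAA, the core of the CHR element bound by DREAM, showed the opposite pattern. It was in 2 of 20 (10.0%) and in 9 of 16 (56.2%) promoters, against 15.4% of all, and CCAAT, the box bound by NF-Y, was in 60.0%, 81.2% and 35.7%. CG dinucleotides, the target of the MBD when methylated, numbered 16 to 47 per G1/S and replication window (median 30.5), 15 to 36 per mitotic window (median 23.5), and 14 at the median of all promoters. E2F2 (chr1:23531234-23531483, minus strand), an activator E2F, and CENPF (chr1:214602945-214603194, plus strand), a kinetochore protein, are printed below as the 250 bases before the start, 5′ to 3′. Capitals mark an E2F site 42 bases before the start of E2F2, and 3 CCAAT boxes of CENPF at 94, 58 (reverse strand) and 33 bases. The TTTGAA of CENPF lay after its start and is not shown, and a match is a description of the letters, not of binding or methylation.
E2F2 promoter: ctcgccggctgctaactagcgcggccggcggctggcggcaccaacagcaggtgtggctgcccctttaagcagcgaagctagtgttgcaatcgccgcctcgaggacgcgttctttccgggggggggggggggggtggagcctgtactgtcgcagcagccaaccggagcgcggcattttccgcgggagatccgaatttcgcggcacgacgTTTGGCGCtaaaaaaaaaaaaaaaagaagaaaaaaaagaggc
CENPF promoter: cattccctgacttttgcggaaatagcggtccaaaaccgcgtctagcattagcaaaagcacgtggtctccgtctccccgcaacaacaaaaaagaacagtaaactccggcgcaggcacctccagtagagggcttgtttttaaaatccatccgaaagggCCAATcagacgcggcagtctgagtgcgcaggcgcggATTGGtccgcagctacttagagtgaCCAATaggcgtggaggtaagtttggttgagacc

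None of the 44 genes passed the test in any comparison (limma, Benjamini-Hochberg adjusted p under 0.05 over 22530 probes). Over 14411 genes with a tested probe, limma called 0.118% higher and 0.0139% lower in MBD-TET1-CDwt against empty vector, 0.0971% higher and 0.0208% lower against MBD-TET1-CDmut, and 0% in either direction in the other comparisons with empty vector. At an unadjusted p under 0.05 stood CCND1 alone among the genes' brightest probes, lower in MBD-TET1-CDwt than in both control groups, and among their dimmer probes 1 of MCM7 (given below with that gene). At that level, 0.673% of all genes were higher and 1.17% lower in TET1-CDwt, 3.37% and 2.92% in MBD-TET1-CDwt and 0.881% and 1.23% in MBD-TET1-CDmut against empty vector, and 3.56% and 3.21% in MBD-TET1-CDwt against MBD-TET1-CDmut. A test for any difference among the 4 constructs called 0 of 44, and 0.0902% of all genes, with CCND1 again at the smallest p (0.015, limma adjusted p = 0.967). The 95% intervals of all 44 genes lay inside 5-fold, the size that the study used to select genes, in all 4 comparisons. They lay inside 2-fold for 25, 23 and 24 of the 26 G1/S and replication genes in the comparisons of TET1-CDwt, of MBD-TET1-CDwt and of MBD-TET1-CDmut with empty vector, and for 23 between the MBD fusions. For mitotic genes these were 15, 10, 12 and 17 of 18. By these intervals, which use the pooled spread, a 2-fold difference was not excluded for 8 of the 18 in MBD-TET1-CDwt against empty vector.

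**Figure D1:**
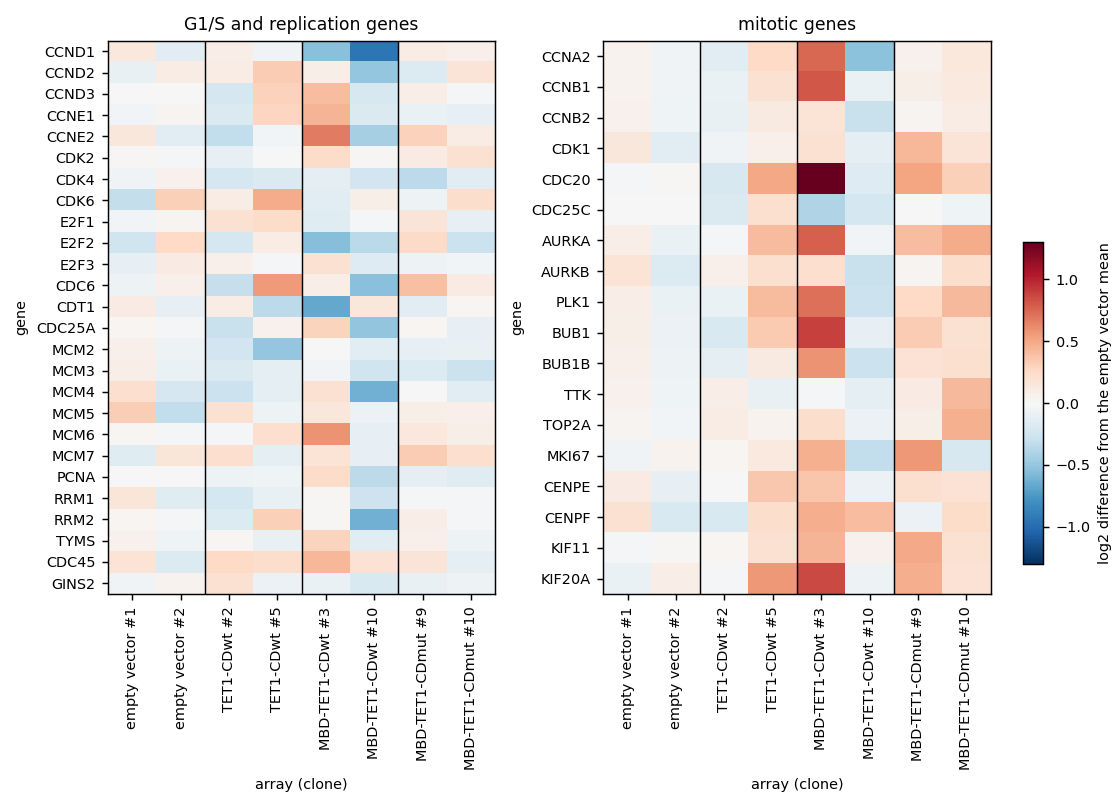
Level of each of the 44 genes (rows) on the 8 arrays (columns), as the log2 difference from the mean of the 2 empty vector clones; red is higher and blue lower. Most mitotic genes are red in MBD-TET1-CDwt #3 and pale or blue in its sister clone #10 (CDC25C is blue in #3 and CENPF red in #10), and CCND1 is blue in both.

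As a group, G1/S and replication genes stayed near the level of all genes. Their median log2 difference from empty vector was 0.02 for TET1-CDwt, -0.08 for its MBD fusion and -0.002 for MBD-TET1-CDmut, beside -0.004, 0.010 and -0.011 over all genes, and it was -0.07 in MBD-TET1-CDwt against MBD-TET1-CDmut, beside 0.02. Numbers higher and lower in these 4 comparisons were 14 and 12, 10 and 16, 13 and 13, and 10 and 16, where 49, 51.3, 48 and 52.6% of all genes were higher. These counts moved with the scaling. The first was 18 and 8 with median scaling, the second 7 and 19 with the normexp background correction, and the third 18 and 8 and the fourth 5 and 21 with quantile normalization. Mitotic genes had medians of 0.07, 0.15 and 0.23 against empty vector, with 16, 14 and 17 of 18 higher (18 of 18 in TET1-CDwt with median scaling), and -0.08 between the 2 MBD fusions, with 6 higher and 12 lower. The 3 comparisons with empty vector share its 2 arrays. The sizes of these medians moved with quantile normalization, median and reference gene scaling and the normexp correction. For G1/S and replication genes they ran from 0.01 to 0.12 in TET1-CDwt, from -0.10 to -0.04 in MBD-TET1-CDwt and from -0.02 to 0.05 in MBD-TET1-CDmut against empty vector, and from -0.14 to -0.07 between the MBD fusions. For mitotic genes the ranges were 0.07 to 0.17, 0.09 to 0.18, 0.19 to 0.28 and -0.15 to -0.08, and all genes in TET1-CDwt were at up to 0.09. The median of G1/S and replication genes thus changed sign in MBD-TET1-CDmut, and in TET1-CDwt it was -0.02 with the mean of a gene's probes.

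Cyclin D1 (CCND1), the growth-factor-responsive partner of CDK4 and CDK6, had the largest difference of the 44 genes in both comparisons of MBD-TET1-CDwt. Its levels were -1.22 and -1.49 in empty vector #1 and #2, -1.28 and -1.40 in TET1-CDwt #2 and #5, -1.90 and -2.30 in MBD-TET1-CDwt #3 and #10, and -1.26 and -1.30 in MBD-TET1-CDmut #9 and #10. Both MBD-TET1-CDwt clones lay below all 6 other arrays, which were within 0.27 of each other, and the 10 spots of the probe had an SD of at most 0.07. CCND1 was 1.67-fold lower than in empty vector (log2 difference -0.74, SE 0.20, 95% interval -1.23 to -0.26; limma adjusted p = 0.560) and 1.77-fold lower than in MBD-TET1-CDmut (-0.82, 95% interval -1.31 to -0.34; adjusted p = 0.508). By the brightest probe of each gene, it was the only one of the 44 to reach 1.5-fold in a comparison. Among dimmer probes, 1 of MCM7 did so between the MBD fusions and 1 of MKI67 in MBD-TET1-CDmut against empty vector (log2 difference 0.66, SE 0.38; limma adjusted p = 1.00), where the brightest MKI67 probe gave 0.18 (SE 0.34). Of all genes, 2.03% were at least 1.5-fold higher and 2.7% lower in TET1-CDwt, 5.18% and 5.34% in MBD-TET1-CDwt and 2.35% and 2.54% in MBD-TET1-CDmut against empty vector, and 5.22% and 5.57% between the MBD fusions. Under the normexp background correction the CCND1 differences from empty vector and from MBD-TET1-CDmut were -0.44 and -0.54, both short of 1.5-fold (0.585).

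Cyclins D2 and D3, E1 and E2 and their kinases differed by less than 1.5-fold in every comparison. CCND2 had levels of 1.28 and 1.47 in empty vector, 1.47 and 1.70 in TET1-CDwt, 1.45 and 0.88 in its MBD fusion, and 1.19 and 1.55 in the inactive fusion. The 2 TET1-CDwt clones were above both empty vector clones, but the nearest of them had the same rounded value (difference 0.21, SE 0.25; limma adjusted p = 1.00). CDK4, the catalytic partner of D-type cyclins, had levels of 4.77 and 4.87 in empty vector, 4.58 and 4.63 in TET1-CDwt, 4.69 and 4.57 in its MBD fusion, and 4.48 and 4.67 in the inactive fusion. Each construct lay below both empty vector clones, by 0.21 (SE 0.17) for TET1-CDwt, 0.19 for its MBD fusion and 0.24 for the inactive fusion, with limma adjusted p of 1.00, 0.907 and 1.00, and the empty vector arrays are shared by all 3. CDK2 and CDK6, CCND3, CCNE1 and CCNE2 did not separate MBD-TET1-CDwt from either control group. CDK2 was the steadiest, with 0.34 between its lowest and highest array, and CCNE2 among the most variable, with 1.11. 

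Of the activator E2Fs, E2F2 was the one that separated MBD-TET1-CDwt from both control groups. E2F2 levels were 2.78 and 3.30 in empty vector, 2.81 and 3.14 in TET1-CDwt, 2.48 and 2.69 in its MBD fusion, and 3.29 and 2.76 in the inactive fusion. The 2 MBD-TET1-CDwt clones were the lowest 2 of the 8, but the higher of them was only 0.08 below MBD-TET1-CDmut #10. The log2 difference was -0.46 (SE 0.27, 95% interval -1.10 to 0.19) from empty vector and -0.44 (95% interval -1.09 to 0.21) from MBD-TET1-CDmut, with limma adjusted p of 0.861 and 0.807. E2F1 had levels of 1.34 and 1.42 in empty vector, 1.58 and 1.63 in TET1-CDwt, 1.22 and 1.36 in its MBD fusion, and 1.55 and 1.27 in the inactive fusion, and TET1-CDwt was above empty vector by 0.22 (SE 0.18; limma adjusted p = 1.00). E2F3 spanned 0.37 over the 8 arrays, with no separation of constructs.

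Replication starts when CDC6 and CDT1 load the MCM helicase at origins, and CDC45 and the GINS complex then activate it. CDC6 levels were -2.42 and -2.30 in empty vector, -2.66 and -1.81 in TET1-CDwt, -2.28 and -2.91 in its MBD fusion, and -1.97 and -2.26 in the inactive fusion. MBD-TET1-CDwt lay below MBD-TET1-CDmut by 0.48 (SE 0.34, 95% interval of the log2 difference -1.28 to 0.32; limma adjusted p = 0.840), with a gap of only 0.02 between the nearest clones, and this difference was -0.17 under the normexp background correction. MBD-TET1-CDmut was in turn above empty vector by 0.25 (SE 0.34; adjusted p = 1.00). CDC45 had levels of 4.74 and 4.39 in empty vector, 4.83 and 4.79 in TET1-CDwt, 5.0 and 4.76 in its MBD fusion, and 4.73 and 4.44 in the inactive fusion. MBD-TET1-CDwt was above empty vector by 0.31 (SE 0.21, 95% interval -0.18 to 0.81) and above MBD-TET1-CDmut by 0.29, and TET1-CDwt above empty vector by 0.24, with limma adjusted p of 0.873, 0.845 and 1.00. CDT1 did not separate constructs, and its lowest array was MBD-TET1-CDwt #3 (3.68, against 4.00 to 4.49 on the others).

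Subunits of the MCM helicase differed by little. MCM2 levels were 4.31 and 4.19 in empty vector, 4.00 and 3.75 in TET1-CDwt, 4.25 and 4.12 in its MBD fusion, and 4.14 and 4.15 in the inactive fusion. TET1-CDwt lay below empty vector by 0.38, with an SE of 0.18 and a 95% interval of the log2 difference from -0.79 to 0.04 (limma adjusted p = 1.00), the largest value of that comparison among the 44 genes. MCM3 had levels of 5.70 and 5.52 in empty vector, 5.42 and 5.49 in TET1-CDwt, 5.57 and 5.35 in its MBD fusion, and 5.43 and 5.33 in the inactive fusion, with MBD-TET1-CDmut 0.23 (SE 0.18) below empty vector, and MCM7 had 6.58 and 6.89 in empty vector, 6.96 and 6.61 in TET1-CDwt, 6.92 and 6.63 in its MBD fusion, and 7.07 and 6.96 in the inactive fusion, with MBD-TET1-CDmut 0.28 (SE 0.22) above it, both at a limma adjusted p of 1.00. A dimmer second probe of MCM7 read -0.49 and -0.51 in MBD-TET1-CDwt and 0.37 and 0.03 in MBD-TET1-CDmut, a log2 difference of -0.70 (SE 0.23; limma adjusted p = 0.643) where the brightest probe gave -0.24 (SE 0.22), both of the same sign. MCM4, MCM5 and MCM6, PCNA (the sliding clamp), GINS2, and the nucleotide synthesis enzymes RRM1, RRM2 and TYMS had differences between -0.34 and 0.24 in the 2 comparisons of MBD-TET1-CDwt. CDC25A, the phosphatase that activates CDK2, was at -0.11 and -0.07.

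In MBD-TET1-CDmut, 13 of the 18 mitotic genes lay higher in both clones than in both empty vector clones and 0 lower, where 17.1% of all genes were higher and 18.2% lower in this way. For G1/S and replication genes these were 4 and 6 of 26. Each of the 13 was under 1.5-fold. Of 34 other mitotic factors, listed beside these 18, 11 were higher and 2 lower in this way, and their median difference was 0.06 (23 higher and 11 lower at any size), against 0.23 for the 18. Between the nearest clones, the gap ran from 0.008 (CCNA2) to 0.32 (AURKA) among the 13. Empty vector and MBD-TET1-CDmut lay on different slides, so slide and MBD fusion cannot be told apart here. In RNA of whole cultures, more cells in a phase and more transcript per cell cannot be told apart either. AURKA, a spindle pole kinase, had levels of 1.51 and 1.34 in empty vector, 1.40 and 1.84 in TET1-CDwt, 2.21 and 1.39 in its MBD fusion, and 1.83 and 1.91 in the inactive fusion. Its difference from empty vector was 0.44 (SE 0.30, 95% interval -0.26 to 1.14), the largest of the 18. CDC20, which activates the anaphase-promoting complex, had 1.23 and 1.25 in empty vector, 1.03 and 1.74 in TET1-CDwt, 2.54 and 1.07 in its MBD fusion, and 1.75 and 1.55 in the inactive fusion, with a difference of 0.41 (SE 0.47, 95% interval -0.70 to 1.53). The mitotic kinase PLK1 had levels of 0.52 and 0.33 in empty vector, 0.34 and 0.83 in TET1-CDwt, 1.15 and 0.14 in its MBD fusion, and 0.69 and 0.85 in the inactive fusion, and differed by 0.34 (SE 0.34, 95% interval -0.47 to 1.16). In each of these 3 genes MBD-TET1-CDwt #3 was the highest array and #10 was between or below the empty vector clones, so that MBD-TET1-CDwt did not separate from either group. The limma adjusted p was 1.00 for all 3. The remaining 10 of the 13 were CCNA2, CCNB1, CDK1, BUB1, BUB1B, TTK, TOP2A, CENPE, KIF11 and KIF20A, with log2 differences of 0.10 to 0.35.

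The kinesin KIF11, which pushes spindle poles apart, was above both empty vector clones in all 3 constructs. KIF11 levels were 1.48 and 1.51 in empty vector, 1.52 and 1.69 in TET1-CDwt, 1.93 and 1.55 in its MBD fusion, and 1.99 and 1.69 in the inactive fusion. The difference was 0.11 for TET1-CDwt, 0.25 for its MBD fusion and 0.35 for the inactive fusion (SE 0.21; limma adjusted p = 1.00, 0.900 and 1.00), over the same empty vector arrays. TOP2A, the topoisomerase that untangles sister chromatids, had levels of 1.67 and 1.59 in empty vector, 1.73 and 1.68 in TET1-CDwt, 1.86 and 1.55 in its MBD fusion, and 1.71 and 2.09 in the inactive fusion. TET1-CDwt was above empty vector by 0.07 (SE 0.20; limma adjusted p = 1.00), the smallest difference named here. By its brightest probe, CENPF was the mitotic gene that lay higher in MBD-TET1-CDwt than in both control groups. Its levels were 4.28 and 3.87 in empty vector, 3.88 and 4.30 in TET1-CDwt, 4.55 and 4.48 in its MBD fusion, and 4.00 and 4.31 in the inactive fusion. The gap to the highest control clone was 0.17, and the differences were 0.44 (SE 0.24, 95% interval -0.12 to 1.00) from empty vector and 0.36 (95% interval -0.20 to 0.92) from MBD-TET1-CDmut, with limma adjusted p of 0.824 and 0.821. A dimmer second probe of CENPF did not separate them. It read -0.72 and -0.71 in MBD-TET1-CDwt, -0.64 and -1.20 in empty vector, and -0.94 and -0.70 in MBD-TET1-CDmut. Its differences were 0.21 (SE 0.24) and 0.11. CDC25C, the phosphatase that activates CDK1 at mitotic entry, lay lower, at 0.08 and 0.08 in empty vector, -0.11 and 0.29 in TET1-CDwt, -0.31 and -0.14 in its MBD fusion, and 0.09 and 0.03 in the inactive fusion. Its difference was -0.31 (SE 0.20, 95% interval -0.77 to 0.15) from empty vector and -0.29 from MBD-TET1-CDmut, with limma adjusted p of 0.871 and 0.836. TTK, a spindle checkpoint kinase, was at 1.12 and 1.00 in empty vector, 1.15 and 0.96 in TET1-CDwt, 1.04 and 0.94 in its MBD fusion, and 1.17 and 1.48 in the inactive fusion, and MBD-TET1-CDwt was below MBD-TET1-CDmut by 0.33 (SE 0.19, 95% interval -0.78 to 0.11; limma adjusted p = 0.786).

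Clones that did not overlap were counted in the same way in the other comparisons. In TET1-CDwt against empty vector, 3 and 4 of 26 G1/S and replication genes and 2 and 0 of 18 mitotic genes were higher and lower, beside 12.5% and 14.2% of all genes. In MBD-TET1-CDwt against empty vector, 1 and 4 of 26 and 2 and 1 of 18 were higher and lower, beside 15.2% and 14.7%. Against MBD-TET1-CDmut these were 1 and 4 and 1 and 2, beside 18.7% and 16.5%.

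**Figure D2:**
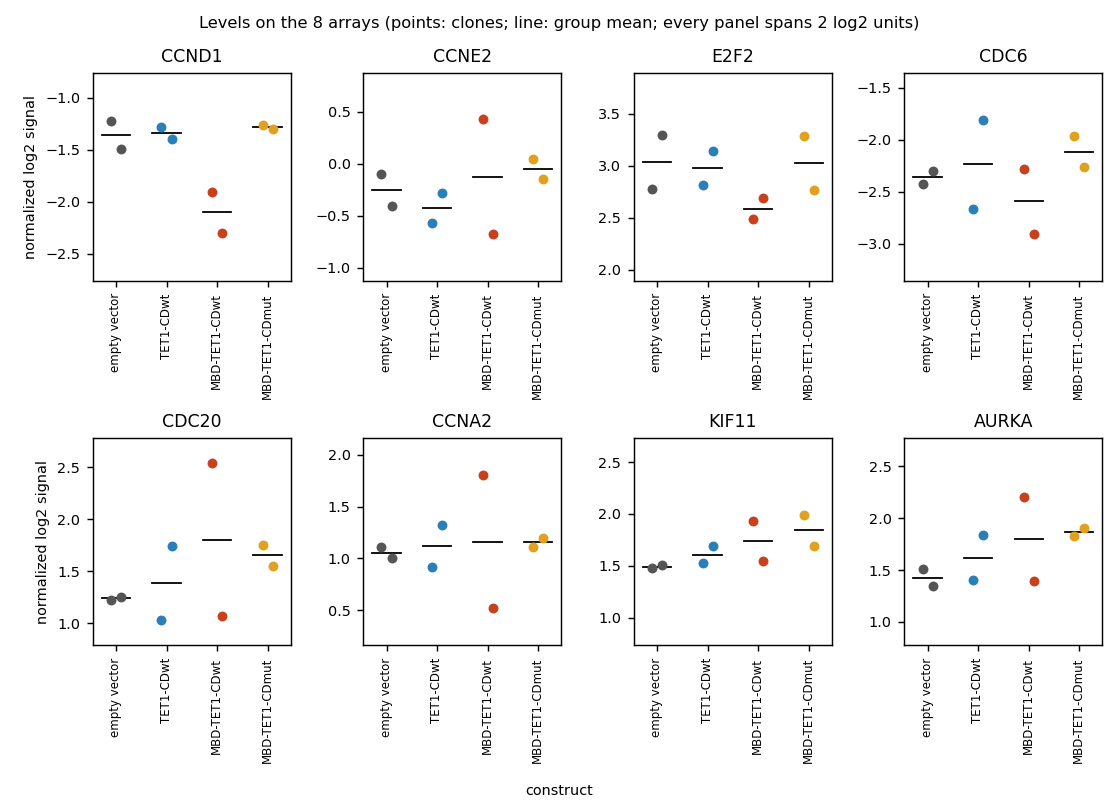
Normalized log2 signal of 8 genes in the 2 clones (points) of each construct, with the group mean (line); each panel spans 2 log2 units. CCND1 is low in both MBD-TET1-CDwt clones (-1.90 and -2.30), whereas CDC20 and CCNA2 are at 2.54 and 1.80 in clone #3 and at 1.07 and 0.52 in #10.

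The widest differences among the 44 genes were between the 2 clones of MBD-TET1-CDwt. Clone #3 was above #10 in 17 of 18 mitotic genes and 22 of 26 G1/S and replication genes, where 51.5% of all genes were higher, and the median differences were 0.65, 0.33 and 0.02. At least 1.5-fold higher in #3 were 9 mitotic and 9 G1/S and replication genes (14.7% of all genes), and at least 2-fold higher were 3 and 1 (3.71%). At least 1.5-fold lower in #3 were 0 mitotic genes, 1 G1/S and replication gene, and 2436 of all 14411 genes. Among the other pairs of clones, the mitotic median was 0.11 for empty vector #1 over #2, -0.32 for TET1-CDwt #2 over #5 and -0.03 for MBD-TET1-CDmut #9 over #10. Mitotic genes higher in the first clone of these pairs numbered 13, 2 and 8 of 18, where 56.8, 48.7 and 49.1% of all genes were higher. With 1 array per clone these differences have no test, and the effect of clone, RNA and array cannot be told apart.

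CDC20 had the largest of these differences, at 2.54 in #3 and 1.07 in #10 (1.48, or 2.78-fold). Cyclin A2 (CCNA2), which drives S phase and mitotic entry, was at 1.80 and 0.52 (2.44-fold), and its 10 spots had an SD of at most 0.12. PLK1 differed 2.01-fold and the checkpoint kinase BUB1 1.99-fold, and both empty vector clones of BUB1 were between the 2 values. CCNB1, the cyclin of mitotic entry, was at 3.89 and 2.99 by its brightest probe, with the other 6 arrays at 3.27 or less. Its dimmer second probe did not show this difference, at 1.40 in #3 and 1.47 in #10. By the brightest probe of each mitotic gene, CDC25C was the exception, with #3 lower by 0.16. Among G1/S genes, CCNE2, an E-type cyclin, was at 0.43 and -0.68 (2.16-fold). CDC25A and MCM4 differed 1.76-fold in the same direction, and CDT1, which is degraded once S phase begins, 1.76-fold in the opposite one. CCND1 was lower in #10 than in #3 by 0.40, less than its distance from the controls.

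Of the 18 mitotic genes, 11 had their highest array in MBD-TET1-CDwt #3 and 8 their lowest in #10, where #3 was highest for 26.7% and #10 lowest for 17.3% of all genes. For the 26 G1/S and replication genes these were 10 and 13. Group medians of MBD-TET1-CDwt therefore rest on which clone is kept. Without #10 the median against empty vector was 0.12 for G1/S and replication genes and 0.47 for mitotic genes, and without #3 it was -0.21 and -0.12. Against MBD-TET1-CDmut, the mitotic median was 0.31 without #10 and -0.39 without #3, and that of G1/S and replication genes 0.092 without #10. The mitotic median of TET1-CDwt against empty vector likewise was -0.07 without #5 and 0.21 without #2. The CCND1 difference from empty vector was -0.55 without #10 and -0.94 without #3, and could not reverse since the clones did not overlap.

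**Figure D3:**
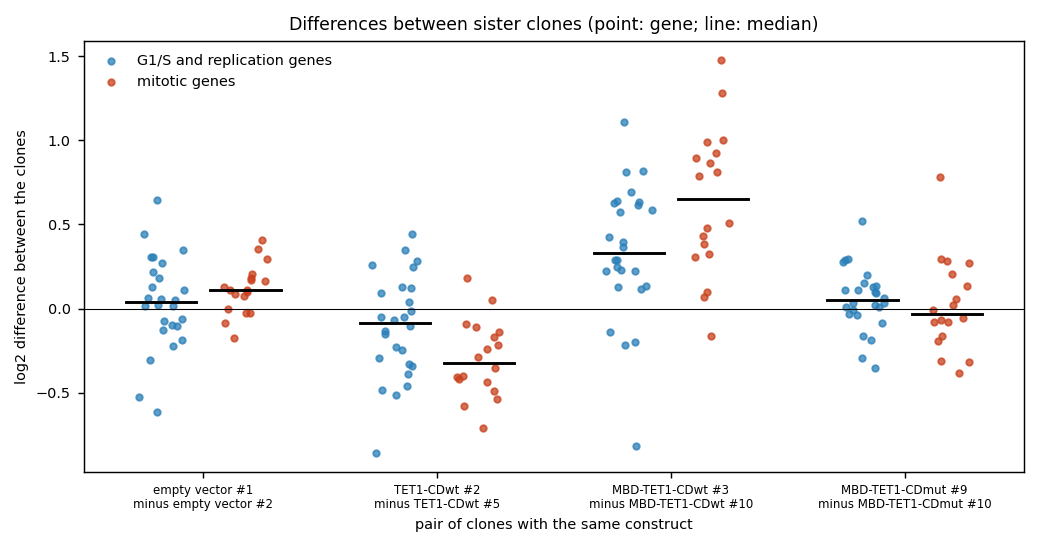
Log2 difference between the 2 clones of each construct for the 26 G1/S and replication genes (blue) and 18 mitotic genes (red), with the median (line). Mitotic genes are shifted up in MBD-TET1-CDwt #3 over #10 (median 0.65) and down in TET1-CDwt #2 over #5 (-0.32).

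Other genes of the same pathways, listed beside the 44, also held no gene that passed the test in either direction. These were 16 regulators of the pRB, E2F and DREAM families, 6 of 7 CDK inhibitors, all 35 other replication factors, and 34 of 35 other mitotic factors, with medians of -0.01, -0.06, 0.05 and 0.12 in MBD-TET1-CDwt against empty vector and -0.01, -0.14, 0.004 and -0.01 against MBD-TET1-CDmut. All 34 mitotic factors were higher in MBD-TET1-CDwt #3 than in #10 (median 0.45), and 29 of 35 replication factors (median 0.38). Among 10 growth arrest genes, the median was 0.20 and 0.23 in those 2 comparisons and none passed. CDKN1A, the CDK inhibitor p21, was dim, with levels of -5.36 and -5.62 in empty vector, -5.69 and -4.75 in TET1-CDwt, -6.74 and -6.07 in MBD-TET1-CDwt, and -4.71 and -5.69 in MBD-TET1-CDmut. It was not well above background on either MBD-TET1-CDwt array or on MBD-TET1-CDmut #10. The empty vector mean was 1.03-fold above the mean of the lowest signals well above background on the MBD-TET1-CDwt arrays (-5.54). Empty vector #2 (-5.62) lay below that mean, so no least fold is given. The limma log2 difference was -0.92 (adjusted p = 0.797), from MBD-TET1-CDwt signals not well above background. No fold is given against MBD-TET1-CDmut either, where 1 of 2 arrays measured CDKN1A (limma adjusted p = 0.681). CDKN1C, the inhibitor p57, was at 0.23 in MBD-TET1-CDwt #3 and 2.02 in #10, with 0.60 to 1.91 on the other arrays. It was picked after seeing the values, as the CDK inhibitor that differed most between these 2 clones. Of the 6 CDK inhibitors, 2 were higher in #3 than in #10, and the median difference was -0.23. ORC1, the large subunit of the origin recognition complex, and TXNIP, a growth-restraining arrestin, chosen after their values were seen, were the genes of these lists at an unadjusted p under 0.05 in MBD-TET1-CDwt against empty vector. ORC1 was at 0.14 and 0.09 in empty vector and -0.42 and -0.36 in MBD-TET1-CDwt (difference -0.50, SE 0.16; limma adjusted p = 0.662), and TXNIP at -2.32 and -2.44 and at -1.45 and -2.03 (0.64, SE 0.25; adjusted p = 0.755). ORC1 was also lower in TET1-CDwt than in empty vector (-0.30). Another growth arrest gene, GADD45A, had a larger difference in the opposite direction (-0.88) without reaching that level.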

How the data were processed

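RNA of 8 HEK293T stable cell lines was hybridized to 8 Agilent 4x44K v2 arrays in 1 color. The deposited intensity is the processed signal of Agilent Feature Extraction (version 9.5.1 in the submitters' processing notes, 10.7.3.1 in the file headers), background-subtracted and not scaled between arrays. The study's methods name no normalization and a 5-fold threshold only. The series-wide table repeats these intensities on all 8 arrays and was read only to check this.

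Controls and outlier-flagged spots were dropped. The spots of a probe were averaged, and log2 of the signal minus the array's 75th percentile over 34127 non-control probes was used. A probe counted as well above background when over 50% of its spots did. Probes were named by RefSeq transcript through a RefSeq gene table (GRCh38.p14), which gave 25422 of them (74.5%) a symbol, and a gene was represented by its brightest probe. limma (version 3.58.1, R 4.3.3) took the 4 constructs as group means over all 8 arrays (residual degrees of freedom 4, prior 2.92). It was run on 22530 probes, those that passed the background criterion in both clones of some construct, and p-values were adjusted over all of them by Benjamini-Hochberg. The fit was tested on simulated data. No list was tested: lists are described by counts and medians beside those of 14411 genes with a tested probe.

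The 44 genes and the pathway lists were chosen with earlier results of these data known. Values on all arrays are given for genes called by limma (none) and, per comparison and list, up to 4 genes with the largest difference among those whose clones did not overlap, and for CDKN1A. Other values, such as those between sister clones, were chosen after seeing the data. Slide could not be fitted beside construct, since each group lies on 1 slide. Alternatives were other scalings, background correction, filters, fits, probe choice and flags, and leaving out each clone. Python 3.11.15, numpy 2.4.6, pandas 2.3.3 and matplotlib 3.10.9 were used.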

Additional observations from a re-analysis of the deposited data

How the results depend on the processing

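Each result was recomputed under 10 alternatives and with each of the 8 clones left out. Of the 44 genes, 0 passed limma's test under any of them, the smallest adjusted p being 0.154 in MBD-TET1-CDwt against empty vector and 0.164 against MBD-TET1-CDmut, and 0.390 for any difference among constructs. All 504 recomputed values of the 28 named differences kept their direction. With a clone left out this was fixed in advance, since these genes were named for clones that did not overlap. The medians of G1/S and replication genes in MBD-TET1-CDwt against empty vector ranged from -0.21 to 0.12 when 1 clone was left out, those of mitotic genes from -0.12 to 0.47, and those against MBD-TET1-CDmut from -0.18 to 0.092 and from -0.39 to 0.31, and MBD-TET1-CDwt #3 and #10 gave the extremes named in the report; a clone left alone was assumed to vary like the others. Under the 10 alternatives these 4 medians kept their sign. Scaling moved the median of all genes by less than 0.1. The normexp alternative used the median spot signal, with flagged local backgrounds replaced by the array's median background, a choice made after seeing the data. No paired analysis was possible because the groups share fewer than 2 clone numbers and the numbers name clones, not pairs. Precision is limited by 2 arrays per group, 1 array per clone and, for the MBD fusions against empty vector, by the slide.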
